A study of Arabidopsis thaliana with 9 samples.

Results

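The genes described here are 10 Arabidopsis thaliana genes for lipid transfer proteins and related proteins, of 27655 genes in the expression table. The 10 are LTP1 to LTP6, and the 4 clustered genes AZI1, EARLI1, AT4G12490 and AT4G12500. They were chosen by locus after the expression differences between these libraries were known, so their own values are given as a description, with no p-value; where a member is said to be called, that is the threshold of the fit over all genes, given for completeness. The study measured RNA from whole 10-day-old seedlings in 9 RNA-seq libraries, 3 in each of 3 groups. The G34R line (label h3.3ko;HTR5 G34R) and the G34W line (label h3.3ko;HTR5 G34W) carry HTR5, a gene for the replacement histone H3.3, with arginine or tryptophan in place of a glycine. Both lines share the h3.3ko background, and the third group is wild type Col (WT). As h3.3ko plants with an unaltered HTR5 were not analysed here, effects of the shared background and of the amino acid change cannot be told apart. The labels do not say how HTR5 is driven, how many independent lines stand behind each name, or whether the replicates came from separate sowings. The p-values below therefore measure the spread between these libraries, which may be technical. In whole seedlings, fewer cells of a type and less RNA per cell cannot be told apart.

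Nonspecific lipid transfer proteins are small basic proteins that carry a signal peptide, are held together by disulfide bridges and bind lipids in a hydrophobic cavity. In shoots they are known from the epidermal cell wall, where they are linked to the cuticle, and several members respond to abscisic acid, cold or pathogens. AZI1 and EARLI1 are hybrid proline-rich proteins, in which a lipid transfer domain follows a proline-rich stretch; AZI1 is known for priming systemic resistance after azelaic acid.

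The 10 genes lie in 5 places of the genome (positions in RefSeq's TAIR10.1). LTP2 (AT2G38530, chr2:16128176-16129399) and LTP1 (AT2G38540, chr2:16130290-16131240) follow each other on the plus strand, 890 bases apart. LTP4 (AT5G59310, chr5:23924990-23925957, minus strand) and LTP3 (AT5G59320, chr5:23928954-23929816, plus strand) point away from each other across 2996 bases. LTP5 (AT3G51600, chr3:19138338-19139423) and LTP6 (AT3G08770, chr3:2664069-2664888), both on the minus strand, have no other member beside them. AZI1 (AT4G12470, chr4:7401087-7401951), EARLI1 (AT4G12480, chr4:7406065-7406994), AT4G12490 (chr4:7409621-7410406) and AT4G12500 (chr4:7413990-7414955) form a row on the minus strand. Each LTP gene has 2 exons, while each of the 4 clustered genes has 1.

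Several members are close copies, which limits how reads can be assigned to them. Over the coding sequence, the 15 pairs among LTP1 to LTP6 shared 57.7% to 86.7% of aligned bases, with LTP3 and LTP4 at the top. The 6 pairs of the chromosome 4 row shared 86.5% to 92.9%. The stretch around the longest identical run of LTP3 and LTP4, 44 bases, is shown first. LTP3 and LTP4 are the members with the widest calculated ratios between G34R and WT. In WT, LTP3 had 15 reads, LTP4 1 and AT4G12500 2, so the order of these ratios is uncertain. The stretch around the 87-base run shared by AT4G12490 and AT4G12500 follows, because AT4G12490 is close to absent beside its copy. All are written 5′ to 3′ on the coding strand, with the bases that differ within a pair in capitals.
LTP3, coding bases 247 to 314: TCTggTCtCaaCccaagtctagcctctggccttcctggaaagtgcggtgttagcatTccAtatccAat
LTP4, coding bases 238 to 305: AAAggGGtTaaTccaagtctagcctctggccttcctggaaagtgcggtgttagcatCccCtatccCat
AT4G12490, coding bases 433 to 543: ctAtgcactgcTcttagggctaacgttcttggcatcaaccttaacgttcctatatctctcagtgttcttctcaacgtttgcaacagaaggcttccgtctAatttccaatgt
AT4G12500, coding bases 418 to 528: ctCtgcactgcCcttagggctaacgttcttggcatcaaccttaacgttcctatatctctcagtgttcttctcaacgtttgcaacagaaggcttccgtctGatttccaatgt
The LTP3 and LTP4 stretches differ at 10 bases, and those of AT4G12490 and AT4G12500 at 3. How reads that match several genes were counted is not given in the sources used here. The split of reads within each pair is therefore uncertain.

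The 250 bases before the start of LTP3, LTP4 and LTP2 are printed as examples from the members that were higher in the G34R line than in both other groups. Sequences are from RefSeq's TAIR10.1, 5′ to 3′ on the strand of the gene, and capitals mark the core of the abscisic acid response element, ACGTG or its reverse complement CACGT.
LTP3, chr5:23928704-23928953, plus strand: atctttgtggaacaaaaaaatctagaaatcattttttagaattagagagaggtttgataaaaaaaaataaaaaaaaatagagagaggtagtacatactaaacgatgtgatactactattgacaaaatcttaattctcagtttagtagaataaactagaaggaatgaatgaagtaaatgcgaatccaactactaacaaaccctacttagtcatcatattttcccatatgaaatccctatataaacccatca
LTP4, chr5:23925958-23926207, minus strand: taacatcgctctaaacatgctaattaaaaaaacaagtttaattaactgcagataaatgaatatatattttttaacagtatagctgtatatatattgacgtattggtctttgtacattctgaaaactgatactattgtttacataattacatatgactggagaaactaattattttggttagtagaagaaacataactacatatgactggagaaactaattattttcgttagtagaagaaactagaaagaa
LTP2, chr2:16127926-16128175, plus strand: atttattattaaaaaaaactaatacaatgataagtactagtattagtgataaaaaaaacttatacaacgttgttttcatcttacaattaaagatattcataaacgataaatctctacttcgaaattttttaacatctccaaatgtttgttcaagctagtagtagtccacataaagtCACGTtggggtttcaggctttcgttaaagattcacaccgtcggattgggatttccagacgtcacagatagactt
The core occurred once in the LTP2 window, 74 bases before the start. Of the windows of the 10 members, 3 held it, AZI1 among them at 200 bases before the start, and 22.9% of 27443 promoters of the same length did. The W-box core read by WRKY factors (TTGAC or GTCAA on either strand) was in 7 of the 10 windows, against 44.9% of all promoters. The core of the abscisic acid element does not occur in the printed LTP3 and LTP4 windows.

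Values are TPM as deposited by the authors, a measure of transcript abundance that is scaled by gene length and by the total of each library. The reads behind them, recovered as described in the processing notes, came to 12861968 to 14699586 per library, and 3 reads in a gene 1 kb long corresponded to 0.422 to 0.495 TPM. Differences are on the log2(TPM + 1) scale with standard errors from limma, fitted to the 18544 genes whose mean over the 9 libraries reached 1 TPM. Libraries of 1 group correlated at 0.990 to 0.992, and libraries of different groups at 0.955 to 0.979. The H3.3 gene HTR8 was at 3.92 to 5.86 TPM in G34R, 4.65 to 6.69 TPM in G34W and 207 to 214 TPM in WT. HTR4 was at 132 to 137 TPM in G34R, 152 to 165 TPM in G34W and 408 to 438 TPM in WT. HTR5, the gene that carries the substitution, was at 353 to 360 TPM in G34R, 368 to 390 TPM in G34W and 331 to 335 TPM in WT.

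The 10 genes covered a wide span of levels in all 3 groups. Ordered by mean in WT, the levels ran LTP1, LTP5, LTP6, LTP2, AZI1, EARLI1, LTP3, AT4G12500, LTP4 and AT4G12490, and LTP1, LTP5, LTP6, LTP2 and AZI1 did not overlap with their neighbours in that order. EARLI1 (1.15 to 3.11 TPM) and LTP3 (0.530 to 1.15 TPM) met at 1.15 TPM, and AT4G12500, LTP4 and AT4G12490 each had WT libraries at 0 and could not be ordered. Together LTP1 to LTP6 summed to 1943 to 2043 TPM in G34R, 2083 to 2109 TPM in G34W and 2080 to 2179 TPM in WT. The G34W and WT ranges of that sum overlapped, and every G34R library was below both. LTP1 made up 72.9% to 74.8% of the sum in G34R, 65.8% to 66.9% in G34W and 77.8% to 78.8% in WT.

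**Figure D1:**
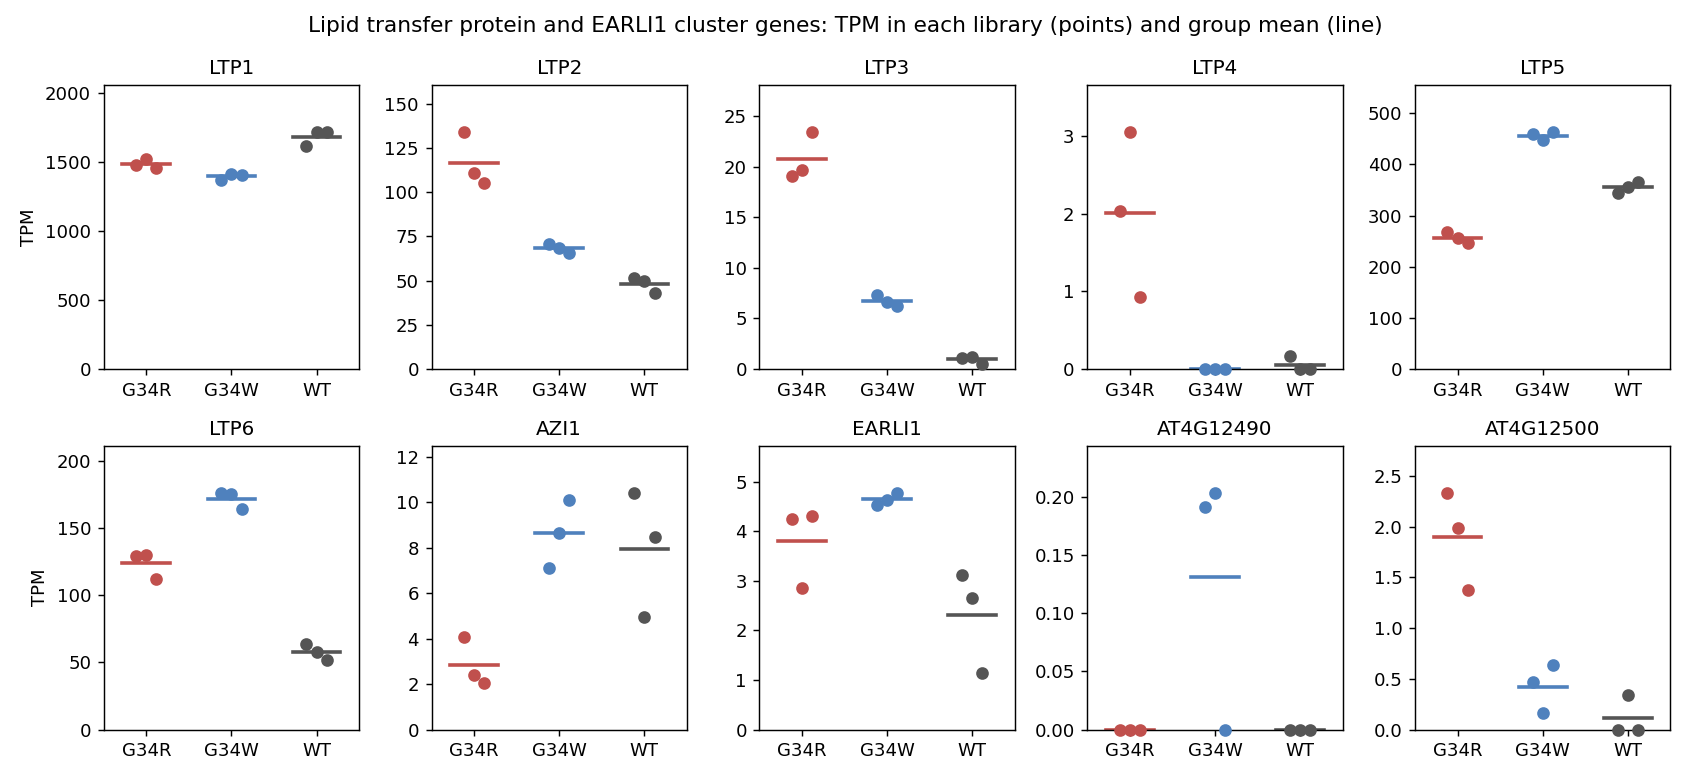
TPM of each of the 10 genes in each library (points) with the group mean (line), for G34R, G34W and WT. LTP1 lies at 1370 to 1716 TPM in all libraries, while AT4G12490 has no library above 0.203 TPM.

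LTP1, an abundant protein of shoot epidermal walls, was lower in both lines than in WT. Its level was 1478, 1521 and 1455 TPM in G34R, 1370, 1410 and 1406 TPM in G34W, and 1618, 1715 and 1716 TPM in WT. The 3 groups did not overlap, with G34W below G34R and G34R below WT. Means were 1485 ± 33.9 TPM in G34R, 1396 ± 22.0 TPM in G34W and 1683 ± 56.0 TPM in WT (SD, n = 3 each). On the log2 scale LTP1 differed by -0.18 ± 0.03 for G34R against WT, and -0.27 ± 0.03 for G34W against WT. The size of both depended on the scaling: quantile normalization gave -0.03 for G34R and -0.05 for G34W, and median-ratio scaling gave -0.31 for G34R and -0.49 for G34W. Among all genes LTP1 ranked 68th by mean level in G34R, 70th in G34W and 68th in WT.

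LTP2, the adjacent copy of LTP1 and known for a part in cuticle integrity, differed in the opposite direction. It had 134, 111 and 105 TPM in G34R, 70.7, 68.6 and 65.8 TPM in G34W, and 51.7, 49.5 and 43.2 TPM in WT. Every G34R library was above every G34W library, and every G34W library was above every WT library. The mean was 117 ± 15.2 TPM in G34R, 68.4 ± 2.46 TPM in G34W and 48.1 ± 4.38 TPM in WT (SD, n = 3 each), which is 2.42 times the WT mean in G34R and 1.42 times in G34W. The log2 difference was 1.26 ± 0.08 for G34R against WT and 0.50 ± 0.08 for G34W against WT, the G34W value falling to 0.28 with median-ratio scaling. Between the lines, G34W minus G34R was -0.75 ± 0.08. LTP1 and LTP2 share 82.4% of their aligned coding bases, and their log2 levels correlated at -0.55 over the 9 libraries.

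LTP3, which abscisic acid and cold induce, had the highest ratio to WT among the 7 members that passed the filter, in both lines. Its level was 19.1, 19.7 and 23.4 TPM in G34R, 7.30, 6.65 and 6.20 TPM in G34W, and 1.12, 1.15 and 0.530 TPM in WT. The groups were fully separate, with G34W between G34R and WT. These values stand on 368 reads in G34R, 113 in G34W and 15 in WT. The G34R mean of 20.7 ± 2.35 TPM was 22.2 times the WT mean of 0.931 ± 0.348 TPM, and the G34W mean of 6.72 ± 0.553 TPM was 7.21 times the WT mean (SD, n = 3 each). In log2 terms LTP3 differed by 3.50 ± 0.14 for G34R, 2.01 ± 0.14 for G34W, and -1.49 ± 0.14 for G34W against G34R. With WT so low, the size moved with the pseudocount: 0.1 gave 4.40 for G34R and 2.79 for G34W, and 5 gave 2.11 for G34R and 0.98 for G34W.

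LTP4, the divergent neighbour of LTP3 and known with it for lowering resistance to bacteria when overexpressed, was seen almost entirely in the G34R line. It had 2.04, 3.05 and 0.921 TPM in G34R, was listed at 0 in all 3 G34W libraries, and had 0.166, 0 and 0 TPM in WT. The G34R libraries held 14, 20 and 6 reads of LTP4, against 1 read in all of WT. The ratio of G34R to WT was 36.6, with an exact 95% counting interval of 6.20 to 1480 that covers counting error only. Against G34W, with a floor of 3 reads per library, LTP4 was at least 4.19-fold higher in G34R. Its mean over the 9 libraries was below the filter, so no fitted difference is given.

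LTP3 and LTP4 thus differed in the G34W line: LTP3 had 42, 36 and 35 reads there and LTP4 none. As their stretches above share a 44-base run, some reads of one may have been given to the other, and that was not tested.

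LTP5, known for a gain-of-function allele that disturbs pollen tube growth, was lower than WT in one line and higher in the other. It had 267, 257 and 247 TPM in G34R, 459, 448 and 463 TPM in G34W, and 345, 356 and 365 TPM in WT. All 3 G34R libraries were below all WT libraries, and all 3 G34W libraries were above them. Means were 257 ± 9.79 TPM in G34R, 457 ± 7.42 TPM in G34W and 355 ± 9.94 TPM in WT (SD, n = 3 each). The fitted difference of LTP5 was -0.46 ± 0.03 for G34R against WT, 0.36 ± 0.03 for G34W against WT, and 0.83 ± 0.03 for G34W against G34R. Among the 7 members that passed the filter, LTP5 was the one whose difference from WT had opposite signs in the 2 lines with no overlap in either, and the signs held under every setting tried. With median-ratio scaling the values were -0.59 for G34R and 0.14 for G34W.

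LTP6, the member with the lowest coding likeness to LTP5, was higher in both lines. It had 129, 130 and 112 TPM in G34R, 176, 175 and 164 TPM in G34W, and 63.8, 57.6 and 52.1 TPM in WT. No library of one group reached into the range of another, and G34W was the highest of the 3 groups. The mean of 124 ± 9.87 TPM in G34R was 2.14 times the WT mean of 57.8 ± 5.88 TPM, and the mean of 172 ± 6.79 TPM in G34W was 2.97 times the WT mean (SD, n = 3 each). LTP6 differed on the log2 scale by 1.09 ± 0.07 for G34R against WT, 1.56 ± 0.07 for G34W against WT, and 0.47 ± 0.07 for G34W against G34R. LTP6 exceeded LTP2 in every G34W and WT library, while in G34R their ranges overlapped.

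The 4 clustered genes were at low levels in every library. AZI1 had 4.07, 2.39 and 2.06 TPM in G34R, 7.11, 8.66 and 10.1 TPM in G34W, and 10.4, 4.96 and 8.46 TPM in WT. The G34R libraries were below all others, while the G34W and WT libraries overlapped. The mean was 2.84 ± 1.08 TPM in G34R, 8.62 ± 1.48 TPM in G34W and 7.94 ± 2.75 TPM in WT (SD, n = 3 each), from 51 reads in G34R, 145 in G34W and 130 in WT. The log2 difference was -1.20 ± 0.22 for G34R against WT and 1.35 ± 0.22 for G34W against G34R, and with a pseudocount of 5 it was -0.71 for G34R against WT and 0.80 for G34W against G34R. For G34W against WT it was 0.14 ± 0.22, a sign that turned under median-ratio scaling (-0.05), quantile normalization (-0.09) and without WT replicate 2 (-0.12), and that was 0.34 without WT replicate 1.

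EARLI1, named for early induction by aluminium, ran differently from AZI1. It had 4.24, 2.85 and 4.31 TPM in G34R, 4.52, 4.63 and 4.77 TPM in G34W, and 3.11, 2.66 and 1.15 TPM in WT. All G34W libraries were above all WT libraries and all G34R libraries, while G34R and WT overlapped. The mean was 3.80 ± 0.821 TPM in G34R, 4.64 ± 0.125 TPM in G34W and 2.31 ± 1.03 TPM in WT (SD, n = 3 each). The log2 difference was 0.58 ± 0.21 for G34R against WT, 0.82 ± 0.21 for G34W against WT and 0.25 ± 0.21 for G34W against G34R. The first of these fell under the call threshold with no filter, with either other scaling, without the trend, and without G34R replicate 1, G34R replicate 3 or WT replicate 3. Without WT replicate 3 the value was 0.29 for G34R against WT and 0.54 for G34W against WT, and without G34R replicate 2 that for G34W against G34R was 0.10. A pseudocount of 5 gave 0.27 for G34R against WT, 0.41 for G34W against WT and 0.14 for G34W against G34R. AZI1 was above EARLI1 in every G34W and WT library, and below it in every G34R library.

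AT4G12500, the last member in the row, was highest in G34R. It had 2.33, 1.99 and 1.38 TPM in G34R, 0.466, 0.165 and 0.633 TPM in G34W, and 0, 0.342 and 0 TPM in WT. These are 38 reads in G34R, 8 in G34W and 2 in WT, and no G34R library overlapped another group. The ratio of G34R to WT was 17.4 (exact 95% counting interval 4.49 to 149), and that of G34W to WT was 3.87 (0.772 to 37.4, an interval that includes no difference). AT4G12490 was listed at 0 in all G34R and WT libraries and at 0.191, 0.203 and 0 TPM in G34W, which is 1 read each in 2 libraries, so no ratio is given. Neither gene passed the filter. A pair of annotated antisense genes, AT4G12485 and AT4G12495, overlap EARLI1 and AT4G12490, and both were listed at 0.

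**Figure D2:**
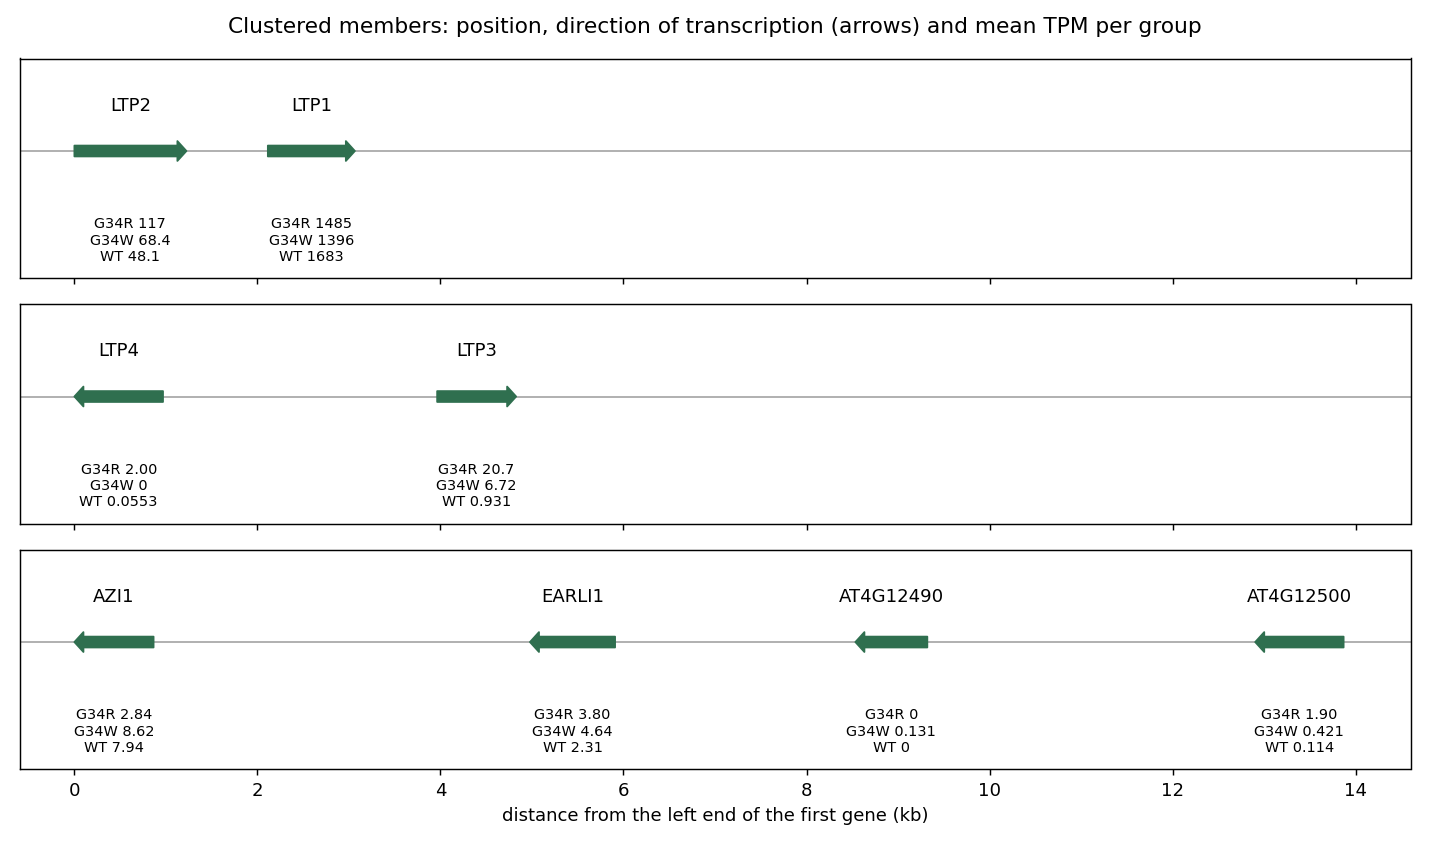
Position and direction of transcription (arrows) of the 8 clustered members, drawn to scale in kb from the left end of the first gene of each cluster, with the mean TPM in G34R, G34W and WT printed under each gene. The order of the 3 groups can differ between neighbours: LTP2 is highest in G34R with 117 TPM and LTP1 highest in WT with 1683 TPM. LTP3 and LTP4 are both highest in G34R.

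In all, 7 of the 10 members passed the filter; LTP4, AT4G12490 and AT4G12500 did not. For G34R against WT, 4 of the 7 were called higher and 3 lower, where 51.1% of all tested genes were called, 34.6% higher and 16.5% lower. For G34W against WT, 5 were called higher, 1 lower and AZI1 neither, where 57.8% of all tested genes were called, 44.8% higher and 13.1% lower. For G34W against G34R, 3 were called higher, 3 lower and EARLI1 neither, where 33.3% of all tested genes were called, 21.5% higher and 11.8% lower. Calls are limma's at a Benjamini-Hochberg adjusted p under 0.05. The libraries of the groups did not overlap for 8 of the 10 members in G34R against WT, 6 in G34W against WT and 9 in G34W against G34R. Among all genes above 0 in a library the same held for 49.3% in G34R against WT, 55.7% in G34W against WT and 38.9% in G34W against G34R. Nothing is read from these member counts, since the members were chosen with these contrasts known. The median difference over all tested genes was 0.10 for G34R against WT, 0.21 for G34W against WT and 0.07 for G34W against G34R. Over all genes, 6419 were called higher and 3060 lower in G34R than in WT, and with median-ratio scaling 4665 higher and 4911 lower. In G34W 8300 were higher and 2427 lower than in WT, and with median-ratio scaling 4500 higher and 4509 lower. For G34W against G34R the split was 3982 higher and 2192 lower, and with median-ratio scaling 2492 higher and 3250 lower.

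**Figure D3:**
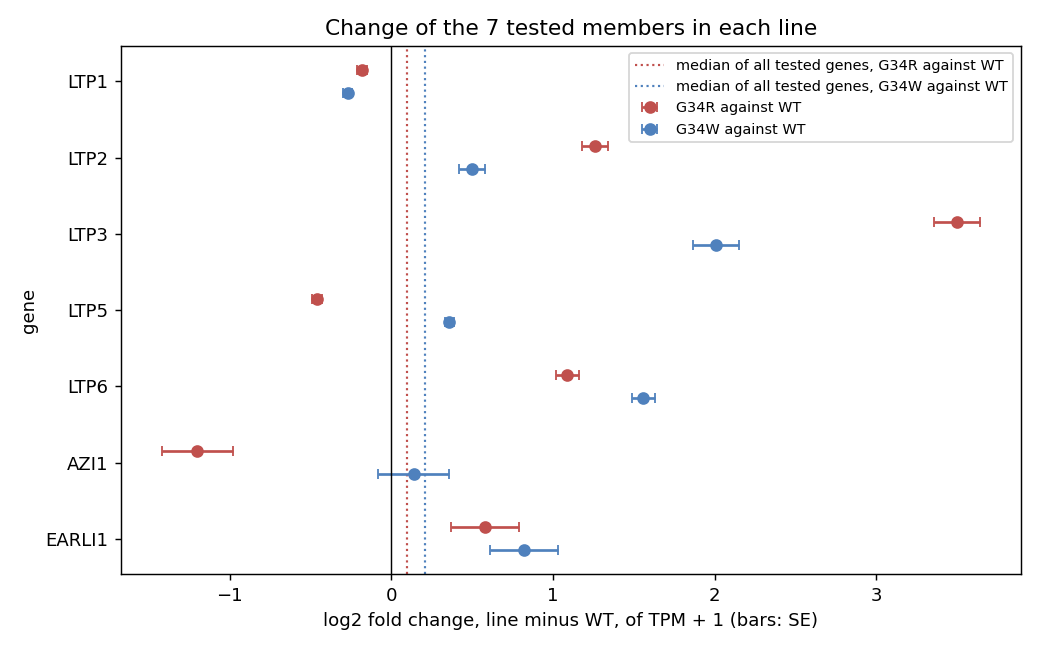
Log2 difference, on the log2(TPM + 1) scale, of the 7 members that passed the filter, for each line against WT. Bars are standard errors from limma, and dotted lines mark the median of all tested genes in each comparison. LTP3 lies at 3.50 for G34R and 2.01 for G34W, and LTP5 lies at -0.46 for G34R and 0.36 for G34W.

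The members followed unlike patterns across the 9 libraries. On the log2 scale LTP2 and LTP3 correlated at 0.96, LTP5 and AZI1 at 0.84, and LTP6 and EARLI1 at 0.82, while LTP1 and LTP6 correlated at -0.97. These values describe 9 libraries in 3 groups, so they mostly restate the order of the group means. For the 4 members above a mean of 10 TPM, the closest course was searched among the 6719 other genes that had a mean of at least 5 TPM and a gene symbol in the RefSeq table; genes known only by locus were left out. LTP1 was closest to GAPB (r = 0.988), a subunit of the chloroplast glyceraldehyde-3-phosphate dehydrogenase, which averaged 1853 TPM in G34R, 1776 TPM in G34W and 2027 TPM in WT. LTP2 was closest to NQR (r = 0.988), a quinone reductase with 61.0 TPM in G34R, 48.8 TPM in G34W and 42.4 TPM in WT. LTP5 was closest to CWLP (r = 0.996), a cell wall and plasma membrane linker protein with 209 TPM in G34R, 500 TPM in G34W and 354 TPM in WT. LTP6 was closest to PSBP-2 (r = 0.996), a relative of an oxygen-evolving complex protein, with 15.9 TPM in G34R, 20.2 TPM in G34W and 7.95 TPM in WT. The next genes in likeness were ckl10 for LTP1 (0.986), UMAMIT27 for LTP2 (0.987), PPR596 for LTP5 (0.993) and HVA22D for LTP6 (0.994).

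The genes beside the members, which the choice of members did not use, gave a mixed picture. AT4G12510 and LTP12 among them also belong to the lists of related genes below, chosen with earlier results known. Likeness of the neighbours to the members, and reads shared with them, were not examined. AT5G59330, on the far side of LTP3, averaged 6.03 ± 0.560 TPM in G34R, 5.46 ± 1.11 TPM in G34W and 2.21 ± 1.73 TPM in WT (SD, n = 3 each). It rose in both lines, by 1.26 ± 0.26 in G34R (limma, adjusted p = 7.43e-04) and 1.13 ± 0.26 in G34W (adjusted p = 0.00163). AT4G12510, next to AT4G12500, averaged 8.01 ± 0.898 TPM in G34R, 7.62 ± 2.26 TPM in G34W and 3.62 ± 0.833 TPM in WT (SD, n = 3 each). It also rose, by 0.97 ± 0.18 in G34R (limma, adjusted p = 2.25e-04) and 0.88 ± 0.18 in G34W (adjusted p = 4.93e-04). Neither passed the test between the lines: G34W minus G34R was -0.13 ± 0.26 for AT5G59330 (limma, adjusted p = 0.735) and -0.09 ± 0.18 for AT4G12510 (adjusted p = 0.722). ORP2B, before AZI1 and named as an oxysterol-binding protein relative, rose by 0.41 ± 0.08 in G34R (limma, adjusted p = 6.63e-04) and had -0.07 ± 0.08 in G34W (adjusted p = 0.523). AT2G38550, beyond LTP1, rose by 0.35 in G34R (limma, adjusted p = 0.0148) and 0.51 in G34W (adjusted p = 9.79e-04). Next to LTP5, LTP12 was listed at 0 in every library, while NPU on the other side had 0.20 ± 0.08 in G34R (limma, adjusted p = 0.0573) and rose by 0.31 ± 0.08 in G34W (adjusted p = 0.00521). Beside LTP6, ATSIK rose by 0.31 ± 0.09 in G34R (limma, adjusted p = 0.0125) and 0.26 ± 0.09 in G34W (adjusted p = 0.0261), and AT3G08780 passed in neither line. AT5G59305 beside LTP4 was listed at 0 in every library, and AT2G38510 beside LTP2 averaged at most 0.198 TPM. The median difference of all tested genes was 0.10 in G34R and 0.21 in G34W, so the smaller rises, such as those of ATSIK and NPU, lie near it. Values of these neighbours with other scaling were not examined.

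Of the 9 other genes named as type 1 lipid transfer proteins, LTP7 to LTP15, 3 passed the filter and 5 were listed at 0 in every library. LTP8 averaged 52.6 ± 2.44 TPM in G34R, 44.7 ± 6.11 TPM in G34W and 18.5 ± 2.17 TPM in WT (SD, n = 3 each). It rose by 1.46 ± 0.09 in G34R (limma, adjusted p = 1.47e-09) and 1.22 ± 0.09 in G34W (adjusted p = 1.26e-08). LTP10 averaged 56.0 ± 7.50 TPM in G34R, 42.1 ± 6.97 TPM in G34W and 14.7 ± 2.70 TPM in WT, and rose by 1.87 ± 0.13 in G34R (limma, adjusted p = 3.28e-09) and 1.46 ± 0.13 in G34W (adjusted p = 6.48e-08). LTP7 fell in both lines, with -0.80 ± 0.07 in G34R (limma, adjusted p = 6.12e-08) and -0.73 ± 0.07 in G34W (adjusted p = 1.76e-07).

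GPI-anchored lipid transfer proteins, which are tethered to the outer face of the plasma membrane and some of which take part in cuticle lipid export, had 14 of 20 genes tested. In G34R 8 rose and 3 fell against WT, with a median of 0.67, and in G34W 9 rose and 3 fell, with a median of 0.36. With median-ratio scaling, and likewise with quantile normalization, 8 rose and 4 fell in G34R, and 6 rose and 3 fell in G34W. AT3G58550 averaged 78.4 ± 4.84 TPM in G34R, 71.9 ± 3.71 TPM in G34W and 19.9 ± 1.34 TPM in WT. It rose by 1.92 ± 0.06 in G34R (limma, adjusted p = 5.15e-13) and 1.80 ± 0.06 in G34W (adjusted p = 1.41e-12). LTPG5 rose by 1.25 ± 0.07 in G34R (limma, adjusted p = 1.41e-10) and 0.75 ± 0.07 in G34W (adjusted p = 8.02e-08). The nearby locus AT3G22620 rose by 1.14 in G34R and 0.74 in G34W. LTPG6 fell in both lines, with -0.51 in G34R and -0.72 in G34W.

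Other hybrid proline-rich proteins, the wider family of AZI1 and EARLI1, had 12 of 17 genes tested. In G34R 5 rose and 5 fell against WT, and in G34W 7 rose and 4 fell. ELP, an extensin-like protein, averaged 751 ± 3.92 TPM in G34R, 453 ± 5.22 TPM in G34W and 1038 ± 24.1 TPM in WT. It fell in both lines, with -0.47 ± 0.03 in G34R (limma, adjusted p = 2.82e-10) and -1.19 ± 0.03 in G34W (adjusted p = 3.88e-15). AT1G62510 averaged 28.8 ± 4.76 TPM in G34R, 4.85 ± 0.380 TPM in G34W and 89.5 ± 17.1 TPM in WT, and fell in both lines, with -1.60 ± 0.12 in G34R (limma, adjusted p = 1.45e-08) and -3.94 ± 0.12 in G34W (adjusted p = 2.37e-13). CWLP had opposite signs in the lines, like LTP5: it fell in G34R, with -0.76 ± 0.03 (limma, adjusted p = 1.43e-11), and rose in G34W, with 0.50 ± 0.03 (adjusted p = 2.79e-09). With median-ratio scaling the G34W value of CWLP was 0.28. AT2G10940 fell in both lines, with -0.51 in G34R and -0.16 in G34W; with quantile normalization its G34W value was -0.05 (limma, adjusted p = 0.0536), and with median-ratio scaling -0.38. The summed level of the family was 4349 to 4452 TPM in G34R, 4656 to 4729 TPM in G34W and 6021 to 6103 TPM in WT.

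Genes that act with AZI1 in systemic resistance had 5 of 9 tested, and the lipid transfer protein DIR1 and the defence marker PR1 were listed at 0 in every library. As the counting of reads that match several genes is not given, a value of 0 need not mean absence. In G34R 2 rose and 2 fell, and in G34W 2 rose and 1 fell. NHO1, a glycerol kinase, rose by 0.60 ± 0.05 in G34R (limma, adjusted p = 4.70e-08) and 0.50 ± 0.05 in G34W (adjusted p = 4.03e-07). With median-ratio scaling the G34W value of NHO1 was 0.28. AT5G03350, a lectin gene, averaged 22.6 ± 2.03 TPM in G34R, 46.3 ± 5.43 TPM in G34W and 43.2 ± 2.08 TPM in WT, the same order of G34R below both others as AZI1. It fell in G34R, with -0.91 ± 0.08 (limma, adjusted p = 1.29e-07), and had 0.09 ± 0.08 in G34W (adjusted p = 0.364), which was -0.13 with median-ratio scaling and -0.05 with quantile normalization. NPR1, a salicylic acid receptor, had 0.29 ± 0.08 in G34R (limma, adjusted p = 0.00673, a call lost with either other scaling) and 0.42 ± 0.08 in G34W (adjusted p = 2.73e-04). The G34W value of NPR1 was 0.21 with median-ratio scaling and 0.22 with quantile normalization. AT5G48490 fell in G34W, with -0.53, while its value of -0.09 in G34R (limma, adjusted p = 0.0411) was no longer called with quantile normalization (adjusted p = 0.180), with no filter, without the trend, with the 2 groups alone, or without G34R replicate 2, G34R replicate 3 or any 1 WT library. With median-ratio scaling its G34R value was instead -0.22 (limma, adjusted p = 9.03e-04).

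Regulators and targets of abscisic acid, the hormone that induces LTP3 and LTP4, had all 12 genes tested. In G34W none rose and 11 fell against WT, with a median of -0.41. In G34R 6 rose and 3 fell, with a median of 0.10, with median-ratio scaling 4 rose and 4 fell, and with quantile normalization 4 rose and 3 fell. RAB18, a dehydrin, averaged 163 ± 4.49 TPM in G34R, 73.0 ± 3.95 TPM in G34W and 120 ± 2.36 TPM in WT. It rose by 0.44 ± 0.05 in G34R (limma, adjusted p = 5.38e-07) and fell in G34W, with -0.71 ± 0.05 (adjusted p = 1.44e-09). KIN1, induced by cold and abscisic acid, averaged 15.8 ± 2.61 TPM in G34R, 3.07 ± 1.70 TPM in G34W and 2.85 ± 0.624 TPM in WT. It rose by 2.12 ± 0.24 in G34R (limma, adjusted p = 1.76e-06) and had -0.01 ± 0.24 in G34W (adjusted p = 0.979). A close copy may share its reads, and a pseudocount of 5 gave 1.40 in G34R. Without G34W replicate 3 the G34W value was 0.37, and without G34W replicate 2 it was -0.29. RD29B fell in both lines, with -0.70 in G34R and -1.48 in G34W. MYB96, a factor known to activate LTP3, fell in both lines, with -0.44 ± 0.10 in G34R (limma, adjusted p = 0.00115) and -1.04 ± 0.10 in G34W (adjusted p = 1.31e-07). LTP3 was higher in both lines, and a link between the RNA levels of MYB96 and LTP3 was not tested.

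Markers of tissues also differed between the lines and WT. Of 12 markers of shoot epidermis and cuticle, where LTP1 is known to be expressed, 1 rose and 9 fell in G34R, and 3 rose and 6 fell in G34W (1 rose and 10 fell with median-ratio scaling, 3 rose and 8 fell with quantile normalization). Their summed level was 1440 to 1472 TPM in G34R, 1567 to 1590 TPM in G34W and 1844 to 1880 TPM in WT. CER6, an enzyme of wax synthesis, fell in both lines, with -0.83 ± 0.03 in G34R (limma, adjusted p = 7.65e-12) and -0.82 ± 0.03 in G34W (adjusted p = 9.67e-12). The cutin hydroxylase CYP86A2 fell in both lines, with -0.77 in G34R and -0.65 in G34W, and the wax transporter CER5 fell likewise, with -0.58 in G34R and -0.52 in G34W. The alkane enzyme CER1 went the other way and rose by 1.12 in G34R and 1.05 in G34W.

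Of 15 root markers, 14 were tested; 13 rose and 1 fell in G34R, and 11 rose and none fell in G34W. Their sum was 220 to 230 TPM in G34R, 191 to 207 TPM in G34W and 116 to 122 TPM in WT. CASP1 of the Casparian strip rose by 1.41 ± 0.06 in G34R (limma, adjusted p = 1.79e-11) and 1.15 ± 0.06 in G34W (adjusted p = 2.59e-10). CASP5 rose by 2.02 in G34R and 1.42 in G34W, the root hair wall protein PRP3 by 1.83 in G34R and 1.34 in G34W, and the root hair expansin EXP7 by 1.43 in G34R and 1.41 in G34W. With a pseudocount of 5 CASP5 was at 1.08 in G34R and 0.68 in G34W, and EXP7 at 0.85 in each. Of 8 leaf mesophyll markers, 2 rose and 5 fell in G34R, and 2 rose and 6 fell in G34W. The balance turned with the scaling: with median-ratio scaling none rose in either line, while with quantile normalization 2 rose and 2 fell in G34R, and 3 rose and 2 fell in G34W. Their sum was 66165 to 71048 TPM in G34R, 67084 to 68521 TPM in G34W and 74149 to 74508 TPM in WT. The antenna gene LHCB2.2 fell in both lines, with -0.42 in G34R and -0.51 in G34W, and CAB2 had -0.28 in G34R and -0.27 in G34W. LHCA1 fell with -0.09 in G34R and -0.31 in G34W, and the photosystem subunit PSAL with -0.20 in G34R and -0.39 in G34W. LHCA1 and CAB2 passed in neither line with quantile normalization, which gave PSAL -0.07 in G34R and -0.08 in G34W. The 2 markers that rose in G34W, named after their values were seen, were CAB3, with 9029 TPM in G34R, 9608 TPM in G34W and 8612 TPM in WT, and RBCS1A, with 18985 TPM in G34R, 20857 TPM in G34W and 19676 TPM in WT. The CAB genes and LHCB2.2 have close copies that may share reads. No marker of these 3 lists was at 0 in all libraries. The part of tissue makeup in the members' values was not tested.

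**Figure D4:**
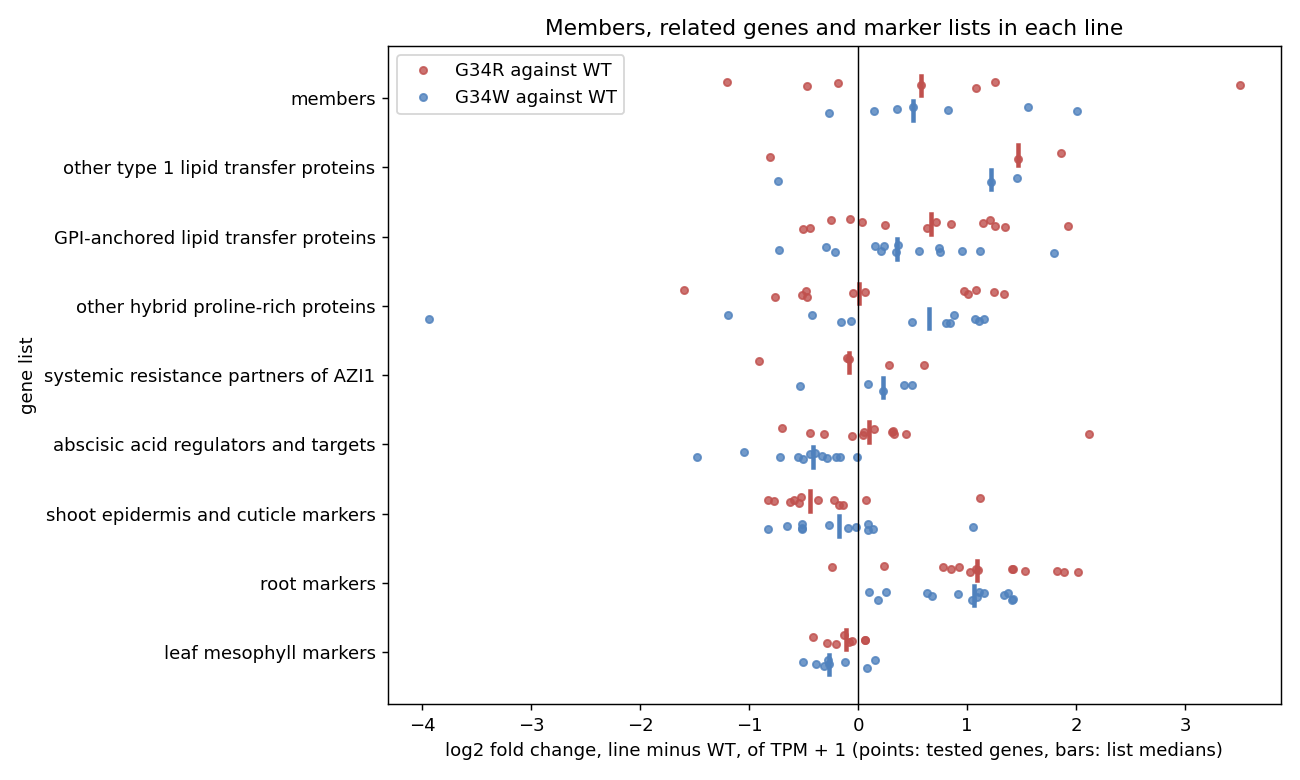
Log2 difference, on the log2(TPM + 1) scale, of every tested gene (points) of the members and of 8 lists of related genes and tissue markers, for G34R against WT and G34W against WT, with the list median (bars); points are spread vertically only for legibility. The root markers have a median of 1.09 in G34R and 1.07 in G34W, and the abscisic acid list 0.10 in G34R and -0.41 in G34W.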

How the data were processed

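RNA was sequenced from 3 libraries each of the G34R line, the G34W line and WT; groups follow the sample labels. The authors deposited 1 table of TPM (transcript abundance scaled by length, summing to 1000000 per library) for 27655 genes. The build TAIR10 and the tools HISAT2 2.1.10, fastp 0.20.1 and DESeq2 1.26.0 are named in the submitters' processing notes. Which program counted reads, whether it used strand, and the gene lengths it took are not given in these sources. Multiplied by the RefSeq TAIR10.1 gene span, known for 27433 genes, the values were whole multiples of 1 per-library unit for 99.98% of genes (tolerance 0.01 reads). These recovered reads give depth and counting intervals only. Fits used limma 3.58.1 in R 4.3.3 with a mean-variance trend on log2(TPM + 1), 1 model over the 3 groups, no covariates, a minimum mean of 1 TPM, two-sided tests, and Benjamini-Hochberg adjustment over all 18544 genes. Adding 1 TPM understates differences of low genes.

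Both lines are compared with the same 3 WT libraries. The members and all gene lists were chosen with earlier results of these data known, so no list is independent evidence. Of each list, up to 4 genes with the smallest adjusted p against WT are named, and for likeness the 2 genes with the highest Pearson r. Alternatives covered the pseudocount, the filter, scaling, the trend, the groups fitted, a replicate block and leaving out each library. Promoters and coding sequences were read from TAIR10.1, and coding likeness from pairwise alignment. Not every promoter sequence of the members is reported here.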

Additional observations from a re-analysis of the deposited data

Results flagged for a closer look

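LTP5 differed from WT in opposite directions in the 2 lines in every library; G34W minus G34R was 0.83 on the log2 scale, and no p-value is given because LTP5 was chosen with this contrast known.

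For other named genes the change against WT differed between G34W and G34R by limma's test of that difference at an adjusted p under 0.05. The difference, G34W minus G34R on the log2(TPM + 1) scale, was -0.41 for LTP10 (adjusted p = 0.0201), -0.40 for AT3G22620, -0.50 for LTPG5 and -0.21 for LTPG6. Among hybrid proline-rich proteins it was -0.73 for ELP, -2.34 for AT1G62510 (limma, adjusted p = 6.27e-10), 1.26 for CWLP (adjusted p = 1.51e-13) and 0.35 for AT2G10940. Among the systemic resistance genes it was -0.45 for AT5G48490 and 1.0 for AT5G03350 (limma, adjusted p = 1.52e-07). Among abscisic acid genes it was -0.78 for RD29B, -1.15 for RAB18 (limma, adjusted p = 2.60e-11), -0.61 for MYB96 and -2.13 for KIN1 (adjusted p = 5.18e-06). Of the tissue markers it was 0.12 for CYP86A2, -0.26 for CASP1, -0.49 for PRP3, -0.60 for CASP5, -0.09 for LHCB2.2, -0.22 for LHCA1 and -0.18 for PSAL. With quantile normalization 2 mesophyll markers were called higher and 0 lower in G34W than in G34R, so LHCB2.2, LHCA1 and PSAL were not called lower there.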

How the results depend on the processing

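Every count of called genes over the whole table, the members or all lists together stayed within 1.5 times its value under all settings run, although the counts say nothing of which genes. Leaving out 1 library at a time gave 8429 to 9352 genes called for G34R against WT (9479 with all), 9665 to 11008 for G34W against WT (10727) and 4893 to 6363 for G34W against G34R (6174). Over the lists it gave 66 to 72 for G34R against WT (71 with all), 66 to 73 for G34W against WT (71) and 43 to 51 for G34W against G34R (48), and over the members 6 to 7, 6 to 6 and 5 to 6 in the same order. Replicate numbers did not pair the libraries: same-numbered libraries had deviations correlated at -0.02 to 0.04. With the replicate number as a block, 9569 genes were called for G34R against WT, 10747 for G34W against WT and 6238 for G34W against G34R; in that order the block called 7, 6 and 6 members and 72, 73 and 51 list genes, and it changed no call count by over 1.5 times. Median-ratio scaling moved the median of all genes to -0.01 in G34R and 0.01 in G34W, and turned HTR5 to -0.03 in G34R and -0.03 in G34W, against 0.10 in G34R and 0.19 in G34W as deposited; the cause was not tested. Among the GPI-anchored genes it called 11 between G34W and G34R (2 higher and 9 lower), against 7 as deposited. Quantile normalization ended the calls of LTP1 and of the mesophyll markers LHCA1 and CAB2 in both lines, and that of AT2G10940 in G34W. LTP4, AT4G12490 and AT4G12500 rest on too few reads for a fitted value, and an absence of reads is limited by depth.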
